A study of Bos taurus with 6 samples.

Results

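The matricellular and elastic fibre genes described here are SPARC, FN1, FBN1, FBN2, ELN, POSTN, TNC, THBS1, THBS2 and CTHRC1, 10 of the 25444 genes in an mRNA count table of cattle intramuscular fat (IMF). They were taken by gene symbol, and all 10 symbols were in the table. The set was chosen from results of the same pair of libraries whose values are given below, so those values are a description and carry no test. IMF is the fat that lies between the fibres of a skeletal muscle, here the sternomandibularis of the neck, in Chinese Qinchuan cattle aged 24 months. Both groups were males weaned at 3 months, sired by one bull and fed one diet. The steers were surgically castrated at 6 months, and the bulls were left intact. The mRNA was measured in 1 pooled library of steers and 1 of bulls, and small RNA in 2 libraries of each. The series design gives 6 animals to an mRNA library and 3 to a small RNA library, whereas the sample labels give 3 and 1.

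Matricellular proteins are secreted into the extracellular matrix, where they act on cells through surface receptors and on the assembly of other matrix proteins more than they bear load. Elastic fibres are made of cross-linked elastin laid on microfibrils of fibrillin, and they let a tissue recoil after stretch. In fat, a mesh of collagen, fibronectin and microfibrils surrounds each adipocyte and is remodelled as the cell takes up lipid.

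The mRNA counts summed to 12677375 in the steers pool and 9868415 in the bulls pool, and the small RNA counts to between 6556511 and 10452582 per library. Of the 25444 genes, 17752 had a count and 13501 had at least 20 counts over both pools. Adipocyte markers were counted in both pools, with 32882 counts over 7 genes in steers and 37612 in bulls. The markers of skeletal muscle (27128 and 37698 counts over 8 genes) and of tendon and cartilage (8563 and 27993 counts over 7 genes) were also counted in both.

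In the steers pool, SPARC, FBN2, POSTN and CTHRC1 were over 2-fold higher than in the bulls pool, and TNC and THBS1 were over 2-fold lower. Counts were scaled by median-of-ratios size factors (1.04 for steers, 0.959 for bulls), and differences are log2 values of steers minus bulls with a 95% counting interval, which covers counting error only. All 10 genes passed the minimum of 20 counts, CTHRC1 through the steers pool alone. Of all genes compared in this way, 5.34% were over 2-fold higher in steers and 10.2% over 2-fold lower. The members' own split was 4 higher, 2 lower and 4 within 2-fold. Their median difference was 0.55, beside 0.02 over all genes, whose middle quartiles ran from -0.39 to 0.35. With 1 pool per group the spread between animals is unknown, and in bulk tissue fewer cells of a type and less RNA per cell cannot be told apart.

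**Figure D1:**
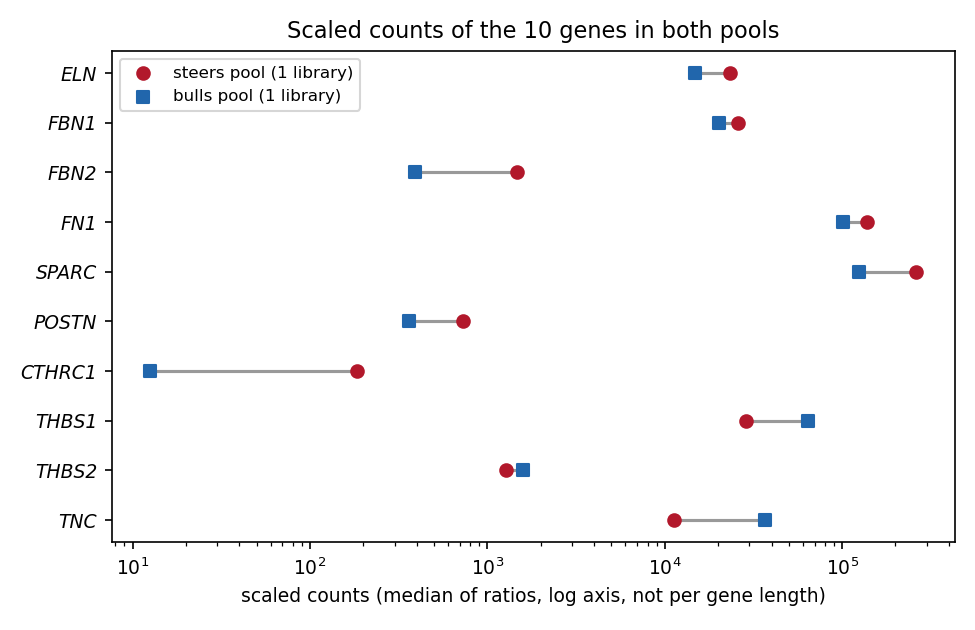
Scaled counts of the 10 genes (log axis, not divided by gene length) in the steers pool (circles) and the bulls pool (squares), 1 library each, joined by a line per gene. The steers pool lies to the right for 7 genes and to the left for TNC, THBS1 and THBS2, and the line is longest for CTHRC1.

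**Figure D2:**
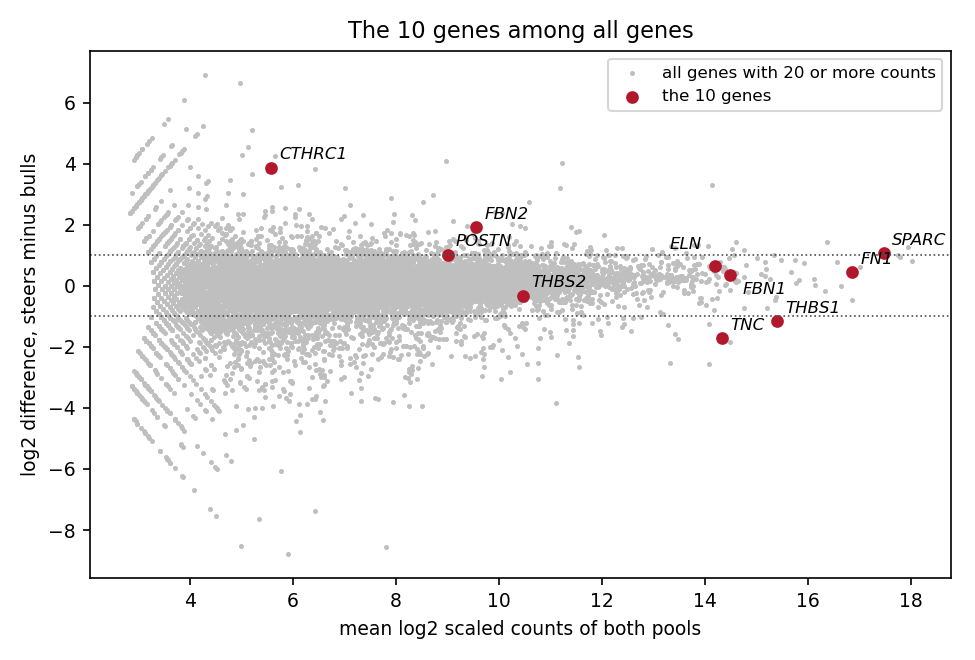
Log2 difference of steers minus bulls against the mean log2 scaled counts of both pools, for all 13501 genes with 20 or more counts (grey) and the 10 genes (red), with dotted lines at 2-fold. SPARC and FN1 lie at the high-count end, and TNC and THBS1 lie below the band that holds most genes of like counts.

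Elastin and the fibrillins are the structural core of elastic fibres. ELN encodes tropoelastin, the monomer of elastin, and it had 24463 counts in the steers pool and 14277 in the bulls pool. That is a difference of 0.65 (95% counting interval 0.62 to 0.68), or 1.57-fold higher in steers, and ELN was the gene closest below the 2-fold limit among the members that were higher in steers. FBN1 encodes the main fibrillin of adult microfibrils and the precursor of the hormone asprosin.

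FBN1 had 26944 counts in steers against 19483 in bulls, a difference of 0.35 (0.32 to 0.37). FBN2, the fibrillin best known from developing tissue, had 1525 counts in steers against 373 in bulls, a difference of 1.91 (1.75 to 2.08), or 3.76-fold higher in steers. Both fibrillins were thus higher in the steers pool, but by unequal amounts. The ratio of FBN1 to FBN2 counts, which depends on no scaling, was 17.7 in steers and 52.2 in bulls, and the log2 change of that ratio was -1.56 (-1.73 to -1.40). The difference of FBN2 lay above that of 98.4% of all genes past the count minimum, a description only, since the set was chosen on this contrast. The ratio of ELN to FBN1 counts moved less, from 0.733 in bulls to 0.908 in steers.

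The proteins that organise and cross-link elastic fibres were examined as a list of 23 partner genes, of which 22 were in the table and 21 passed the count minimum. Of these, 3 were over 2-fold higher in steers (1 with total counts) and 0 over 2-fold lower, beside 5.34% and 10.2% of all genes. Above 0 lay 17 of the 21, and the median of the list was 0.47, beside 0.02 over all genes. LOXL1, a lysyl oxidase family enzyme that cross-links elastin, had 1906 counts in steers against 695 in bulls, a difference of 1.33 (1.21 to 1.46). MFAP4, a microfibril-associated protein that binds elastin and fibrillin, had 17463 and 6834 counts, a difference of 1.23 (1.19 to 1.27). EFEMP2, the fibulin that brings lysyl oxidase to tropoelastin, had 5493 and 2259 counts, a difference of 1.16 (1.09 to 1.23). The other lysyl oxidases, singled out after their values were seen, did not share one direction: LOXL2 differed by 0.93 (0.85 to 1.02) and LOX itself by -0.48 (-0.55 to -0.42), with 3126 counts in steers and 4017 in bulls.

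SPARC and FN1 were the members with the largest shares of the libraries. SPARC, also called osteonectin, is a collagen-binding glycoprotein that takes part in the processing of procollagen and is made by fat tissue. It had 273795 counts in the steers pool, 2.16% of that library (95% Clopper-Pearson interval 2.15% to 2.17%). In the bulls pool it had 119373 counts, 1.21% of the library (1.20% to 1.22%). The difference was 1.08 (1.07 to 1.09), or 2.11-fold higher in steers.

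FN1 encodes fibronectin, the adhesive glycoprotein on which other matrix fibres assemble. It had 144350 counts in steers (1.14% of the library, 1.13% to 1.14%) and 97549 in bulls (0.988%, 0.982% to 0.995%), a difference of 0.44 (0.43 to 0.45). The share of FN1 among the counts of the 10 genes was 28.0% in steers and 27.9% in bulls, while that of SPARC was 53.1% and 34.1%. The 10 genes together held 515321 counts in steers, 4.06% of the library (4.05% to 4.08%), and 349840 in bulls, 3.55% (3.53% to 3.56%). Without SPARC the shares were 1.91% (1.90% to 1.91%) in steers and 2.34% (2.33% to 2.34%) in bulls. On the median-of-ratios scale these sums differed by 0.44 with SPARC and by -0.05 without it.

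Collagen mRNAs, to whose proteins SPARC binds, were higher in the steers pool beside it. Of 14 listed collagen chains 13 were in the table and passed the count minimum. Of these, 4 were over 2-fold higher in steers and 1 over 2-fold lower, beside 5.34% and 10.2% of all genes. Above 0 lay 11 chains, and the median of the list was 0.93. The 4 were COL6A1 (1.44, 1.43 to 1.46), COL5A1 (1.36, 1.28 to 1.45), COL3A1 (1.27, 1.26 to 1.28) and COL1A1 (1.00, 0.996 to 1.01). The interval of COL1A1 crosses the limit, and 3 of the collagens were over 2-fold higher with TMM factors or total counts. The ratio of SPARC to COL1A1 counts was 0.847 in steers and 0.806 in bulls, so SPARC and the main collagen I chain differed by nearly the same factor. COL11A1, a minor fibrillar chain known from cartilage, was the exception past 2-fold, with 305 counts in steers and 638 in bulls, a difference of -1.19 (-1.39 to -0.99). The other chain below 0, COL12A1, lay within 2-fold, with 30393 counts in steers and 46249 in bulls, a difference of -0.73 (-0.75 to -0.71). Fibroblast markers, a list that shares COL1A1 and COL1A2 with the collagens, summed to 778237 counts over 8 genes in steers and 400844 in bulls. Their median difference was 0.69, and their part in these differences was not tested. COL1A1 (323285 counts in steers, 148046 in bulls) and COL1A2 (322757 and 155951) held most of those counts, so the sum largely repeats the collagen values. The other markers of that list differed by 0.999 (THY1), 0.95 (LUM), 0.46 (DPT), 0.04 (DCN), -0.48 (PDGFRA) and -0.76 (PDPN).

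POSTN and CTHRC1 are secreted proteins linked to collagen handling in remodelling tissue, and both had few counts. POSTN, periostin, is a ligand of integrins that is abundant in periosteum and in healing wounds. It had 765 counts in the steers pool and 346 in the bulls pool, a difference of 1.02 (0.84 to 1.21), just over the 2-fold limit. Its value was 0.78 when the pools were scaled by total counts and 1.00, short of the limit before rounding, with TMM factors.

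CTHRC1, collagen triple helix repeat containing protein, is made by activated fibroblasts. It had 191 counts in steers against 12 in bulls, a difference of 3.87 (3.03 to 4.85), or 14.6-fold higher in steers. It was the widest difference among the 10 genes, but the 12 counts in bulls leave it the widest interval of the 10. CTHRC1 passed the count minimum through the steers pool alone, so its rank among all genes is not given. Over the 4 scaling and prior count alternatives it stayed between 3.63 and 3.89.

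TNC and THBS1 were over 2-fold lower in the steers pool, and THBS2 lay below 0 within 2-fold. TNC encodes tenascin-C, a hexameric matricellular protein that appears at sites of injury, inflammation and mechanical load and in tendon. It had 11802 counts in the steers pool, 0.0931% of the library (0.0914% to 0.0948%). In the bulls pool it had 35439 counts, 0.359% (0.355% to 0.363%). The difference was -1.71 (-1.74 to -1.68), or 3.27-fold higher in bulls, and 4.84% of all genes past the count minimum lay lower, again a description only.

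THBS1, thrombospondin-1, activates latent TGF-beta and binds CD36 and CD47. It had 30164 counts in steers, 0.238% of the library (0.235% to 0.241%), and 61472 in bulls, 0.623% (0.618% to 0.628%). The difference was -1.15 (-1.17 to -1.13), or 2.22-fold higher in bulls. THBS2, its closest relative, had 1322 counts in steers against 1516 in bulls, a difference of -0.32 (-0.43 to -0.21).

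THBS1 and THBS2 thus lay on either side of the 2-fold limit on the low side. The ratio of THBS1 to THBS2 counts was 22.8 in steers and 40.5 in bulls, a log2 change of -0.83 (-0.94 to -0.72). Ratios were also taken between members that went opposite ways, pairs that were picked after their values were seen. FN1 counts were 12.2 times the TNC counts in steers and 2.75 times in bulls, and SPARC counts were 9.08 times the THBS1 counts in steers and 1.94 times in bulls. The ratio of ELN to TNC counts was 2.07 in steers and 0.403 in bulls. These ratios compare a gene pair between pools and do not say which gene of a pair had more transcripts, since gene lengths were not used.

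Relatives of these genes among the matricellular proteins were listed as 24 further genes, of which 22 were in the table and 20 passed the count minimum. None of them was over 2-fold higher in steers and 4 were over 2-fold lower, beside 5.34% and 10.2% of all genes. With 9 above 0 and 11 below, the median was -0.05, beside 0.02 over all genes. The 4 were COMP, SPOCK1, SPP1 and SPOCK2, of which SPOCK1 passed the count minimum through the bulls pool alone. COMP, the cartilage thrombospondin also called thrombospondin-5, had 4459 counts in steers against 23516 in bulls, a difference of -2.52 (-2.57 to -2.47). SPP1, osteopontin, an integrin ligand that macrophages also make, had 116 and 302 counts, a difference of -1.50 (-1.82 to -1.19).

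SPOCK1 and SPOCK2, testicans of the SPARC family, differed by -2.49 (-3.47 to -1.62) on 13 and 67 counts and by -1.47 (-1.79 to -1.17) on 122 and 311 counts. SPARCL1, the closest relative of SPARC, was also lower in steers, with 1554 and 1961 counts and a difference of -0.46 (-0.55 to -0.36). SPARC and its relative thus moved in opposite directions, and SPARC counts were 176 times the SPARCL1 counts in steers and 60.9 times in bulls, a log2 change of 1.53 (1.44 to 1.63). Among the thrombospondins outside the set, THBS4 had 104300 counts in steers against 133605 in bulls, a difference of -0.48 (-0.49 to -0.47), and THBS3 differed by 0.31 (0.22 to 0.40). SPARCL1, THBS4 and THBS3 were singled out after their values were seen.

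Markers of several other cell types also differed between the pools, beside TNC and THBS1. The counts past 2-fold given here stand beside 5.34% of all genes over 2-fold higher in steers and 10.2% over 2-fold lower. Of the 7 tendon and cartilage markers 3 were over 2-fold lower in steers, COMP, TNMD and COL2A1. COMP held most of that list's counts in bulls, and without it the other 6 summed to 4104 counts in steers and 4477 in bulls, a difference of -0.25. TNMD, the tendon marker tenomodulin, had 58 and 696 counts, and COL2A1, the cartilage collagen, 30 and 113, while ACAN, the cartilage proteoglycan aggrecan, differed by 0.79. The 7 macrophage markers in the table (of 8 listed) summed to 20215 counts in steers and 41764 in bulls, and 5 were over 2-fold lower. The 4 T lymphocyte markers summed to 76 and 522 counts. The 8 skeletal muscle markers had a median difference of -0.32. Of them 1 was over 2-fold higher in steers, MYH1 (1.15), and 2 over 2-fold lower, MYH7 (-2.23) and TNNT1 (-2.01). The 7 adipocyte markers had a median of -0.38, with 0 over 2-fold higher and 1 over 2-fold lower, FABP4 (-1.06).

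The 4 platelet markers summed to 41 counts in steers and 66 in bulls. PPBP and GP9 had 0 counts in both pools (a count of 0 allows up to 3 counts), PF4 had 1 and 0, and ITGA2B had 40 and 66, a difference of -0.84. The 7 smooth muscle and pericyte markers summed to 20014 and 24048 counts, with a median of -0.37. The 6 endothelial markers summed to 9625 and 9043 counts, with a median of -0.14. Past 2-fold lay 0 of the 6, beside 5.34% of all genes higher and 10.2% lower. Of the 6 epithelial markers 2 passed the count minimum, KRT8 with 148 and 7 counts and KRT18 with 77 and 20. KRT8 passed it through the steers pool alone, and KRT14 had 0 counts in both pools. The part of these cell types in the differences of TNC and THBS1 was not tested.

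**Figure D3:**
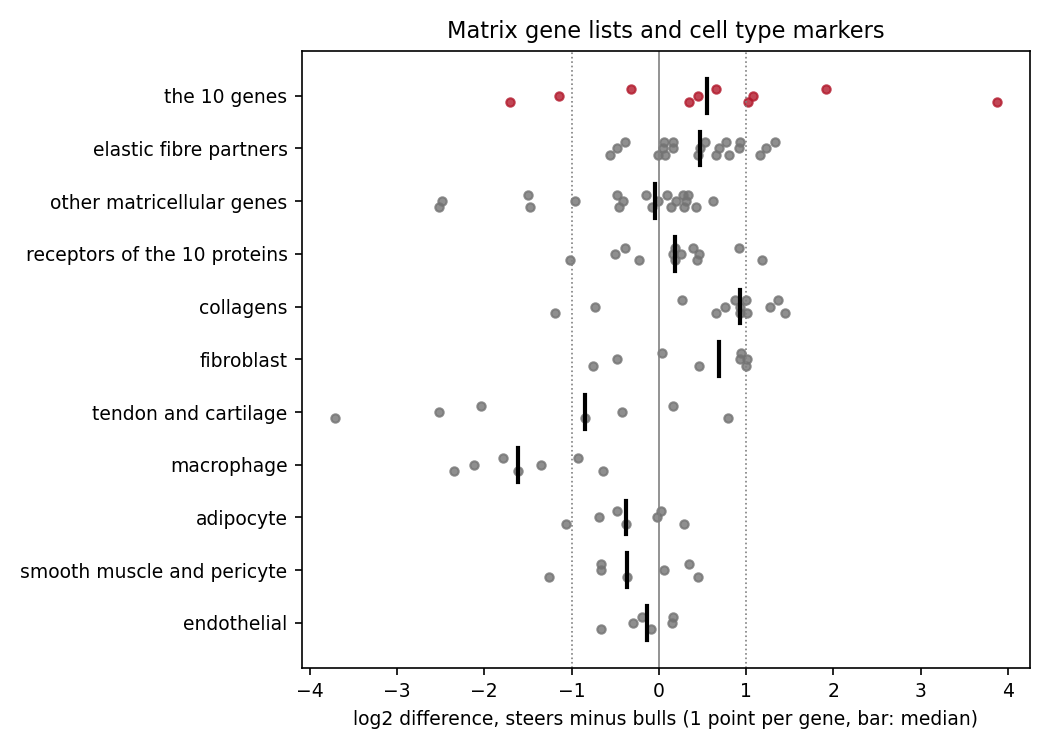
Log2 difference of steers minus bulls for each gene (points) of the 10 genes, the 4 matrix lists and 6 of the cell type marker lists, with a bar at each list's median and dotted lines at 2-fold. The medians are 0.55 for the 10 genes, 0.93 for collagens and -1.62 for macrophage markers.

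Receptors through which these proteins act on cells were listed as 13 genes. All 13 passed the count minimum, 1 was over 2-fold higher in steers and 1 over 2-fold lower, beside 5.34% and 10.2% of all genes, and the median was 0.19. ITGA9, an integrin chain that binds tenascin-C and osteopontin, had 1317 counts in steers against 533 in bulls, a difference of 1.18 (1.04 to 1.33), opposite in direction to TNC and SPP1. ITGA8, an integrin chain for fibronectin and tenascin-C, had 30 and 56 counts, a difference of -1.02 (-1.71 to -0.36). The thrombospondin receptors CD36 and CD47, singled out after their values were seen, differed by -0.39 (-0.48 to -0.30) and -0.23 (-0.36 to -0.10).

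The choice of scaling moved all 10 values together. Scaling by total counts moved the median of all genes from 0.02 to -0.22 and lowered each member by the same amount, so that SPARC fell to 0.84, FBN1 to 0.11 and FN1 to 0.20, while TNC went to -1.95 and THBS1 to -1.39. Under that scaling 3.59% of all genes were over 2-fold higher and 13.7% over 2-fold lower, and higher genes were 20.8% of those past 2-fold in place of 34.5%. FBN2 and CTHRC1 were then the members over 2-fold higher. No member changed direction under any of the scalings tried, and TNC and THBS1 stayed over 2-fold lower in all of them.

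**Figure D4:**
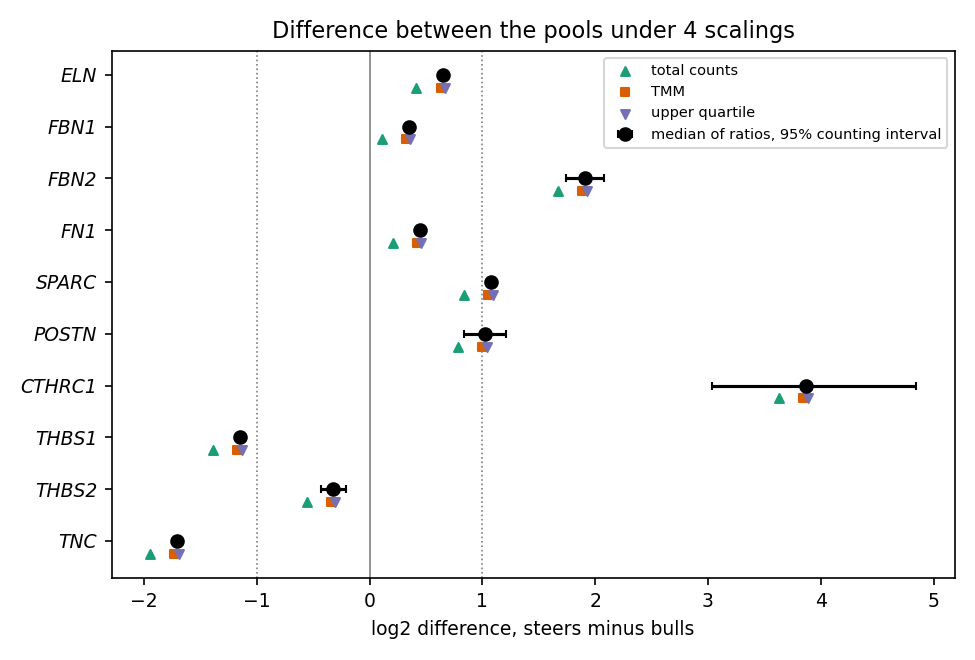
Log2 difference of steers minus bulls for the 10 genes under median-of-ratios scaling (circles with 95% counting intervals) and under total counts, TMM and upper quartile scaling. Total counts give the lowest value for every gene, and SPARC and POSTN then lie within 2-fold.

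MicroRNAs that are known to pair with mRNAs of these genes were compared in the small RNA libraries, which were not used to choose the genes. The miR-29 family is known to target ELN, FBN1 and SPARC, miR-18 and miR-19 of one shared cluster to target THBS1, and miR-335 to target TNC. Pairing was not tested here, and the counts of these miRNAs had been seen when they were listed. The mature sequences of the 7 listed miRNAs with enough reads for the test are shown 5′ to 3′ with the seed, bases 2 to 8, in capitals, since the seed sets which transcripts a miRNA can pair with.
bta-miR-29a: cTAGCACCatctgaaatcggtta
bta-miR-29b: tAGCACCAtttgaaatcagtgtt
bta-miR-29c: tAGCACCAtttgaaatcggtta
bta-miR-29d-3p: tAGCACCAtttgaaatcgatta
bta-miR-18a: tAAGGTGCatctagtgcagata
bta-miR-19b: tGTGCAAAtccatgcaaaactga
bta-miR-335: tCAAGAGCaataacgaaaaatgt
bta-miR-29b, bta-miR-29c and bta-miR-29d-3p share 1 seed. In bta-miR-29a the same bases start at position 3, as its annotated sequence begins 1 base earlier.

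All 7 miRNAs had log2 fold changes below 0 in steers, but that of bta-miR-19b was only -0.02 and changed sign under some alternatives. How many of all sequences tested lay below 0 was not counted, so the shared direction has no background beside it. The test was edgeR's quasi-likelihood test, and 0 of 7 passed. Its limits were 0.05 on the adjusted p and 1 on the size of the log2 fold change. Over all 1073 sequences tested, 7.08% were called lower in steers and 7.08% higher (76 sequences each way). With upper quartile scaling 101 were called higher and 52 lower, and with total counts 1 higher and 0 lower. At an unadjusted edgeR p under 0.05 there were 3 of the 7, bta-miR-29a, bta-miR-29d-3p and bta-miR-335, beside 293 of all 1073 sequences tested. DESeq2 gave 0 calls among the 7 and 2 at an unadjusted p under 0.05. Both steers libraries lay below both bulls libraries for 4 of the 7, beside 31.5% of all sequences tested.

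bta-miR-29a, the member of its family with the most reads, had TMM-normalised values of 1239 and 925 CPM (counts relative to the effective library size) in the steers libraries and 2559 and 1689 CPM in the bulls libraries. The groups did not overlap, but the bulls libraries differed widely from each other. The log2 fold change was -0.97 (SE 0.49) with an edgeR adjusted p of 0.174. Without bulls replicate 1, which had the highest value, it was -0.45. bta-miR-335 had 94.2 and 62.5 CPM in steers and 171 and 136 CPM in bulls, again without overlap, for a log2 fold change of -0.97 (SE 0.47) and an edgeR adjusted p of 0.155. Without bulls replicate 1 it was -0.60. TNC, its known target, was lower in the steers pool as well.

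bta-miR-29d-3p had 7 and 6 counts in the steers libraries against 25 and 12 in the bulls libraries. Its log2 fold change was -1.49 (SE 0.68), with an edgeR adjusted p of 0.125. Without bulls replicate 1 it was -0.49. bta-miR-18a averaged 3.82 ± 1.12 CPM (SD, n = 2) in steers against 7.16 ± 2.40 CPM in bulls, a fold change of -0.90 on the log2 scale (SE 0.53). For bta-miR-29b (16.6 ± 6.81 against 31.0 ± 13.7 CPM, SD, n = 2) and bta-miR-29c (157 ± 40.2 against 240 ± 84.0 CPM) the libraries of the groups overlapped. Their log2 fold changes were -0.90 (SE 0.50) and -0.61 (SE 0.49). bta-miR-19b stood at 190 ± 52.7 CPM in steers against 192 ± 68.6 CPM in bulls, which is -0.02 (SE 0.48) on the log2 scale. The edgeR adjusted p of these 4 miRNAs ran from 0.222 to 0.990. Without bulls replicate 1 their log2 fold changes were -0.33 for bta-miR-18a, -0.17 for bta-miR-29b, -0.01 for bta-miR-29c and 0.59 for bta-miR-19b. The remaining 3 listed miRNAs, bta-miR-29e, bta-miR-18b and bta-miR-19a, had at most 3 counts in any library and were not in the main test. With a minimum of 1 count all 10 listed miRNAs were tested, and 0 were called.

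**Figure D5:**
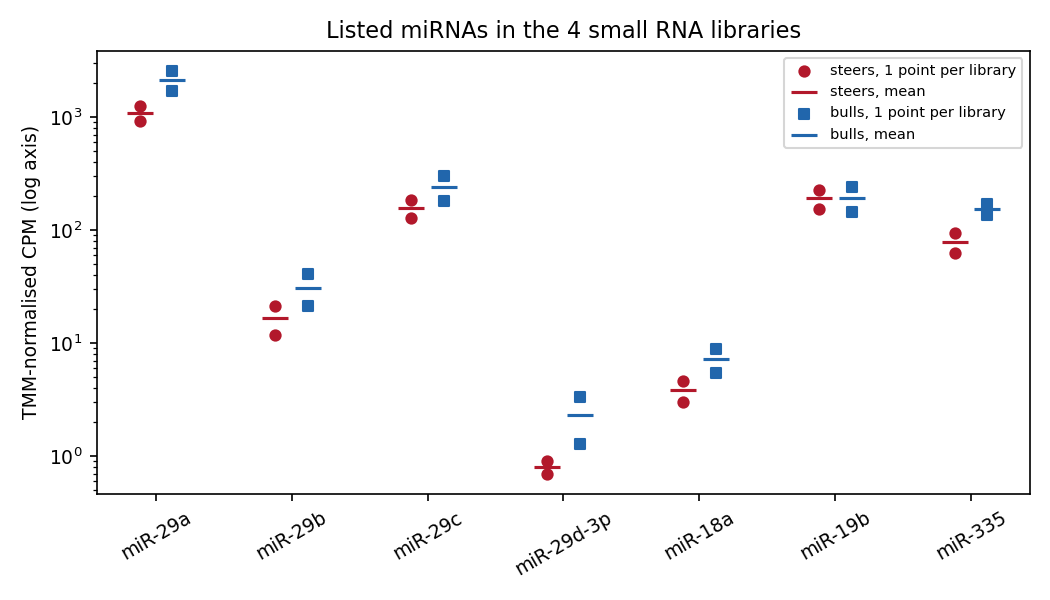
TMM-normalised CPM (log axis) of the 7 tested miRNAs in the 2 steers libraries (circles) and 2 bulls libraries (squares), with a line at each group's mean. The steers and bulls points are apart for bta-miR-29a, bta-miR-29d-3p, bta-miR-18a and bta-miR-335 and interleave or meet for the others.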

How the data were processed

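The authors removed adaptors and low-quality reads from Ion Proton mRNA reads and aligned the rest to a bovine genome with MapSplice, and what they deposited is a table of raw counts, 1 per gene and pool. How reads were assigned to genes, and whether by strand, is not given in the sources used here. The submitters' processing notes name the human build GRCh37.p13, whereas the study's methods name a bovine genome. The deposited small RNA values are raw counts per sequence from HiSeq reads for which the authors used BWA against miRBase and the cattle genome. Libraries were grouped as steers or bulls by the treatment in their labels. The labels do not say whether libraries of a group shared animals, so p-values measure only the spread between these libraries.

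The 10 genes, the gene lists and the miRNA list were chosen with earlier results of these data known. The genes named beyond the 10 are those of the 4 matrix lists past 2-fold with at least 20 counts, and exceptions are stated. Marker lists are given by sums, counts and medians, and single marker genes were picked as examples after their values were seen. The mRNA size factors were computed over the whole table with numpy 2.4.6, and counting intervals are exact 95% Clopper-Pearson intervals from scipy 1.17.1. They cover counting error only, since reads without molecular identifiers are not independent molecules. A count of 0 was set to a floor of 3 counts in a ratio. The small RNA counts were fitted over all sequences past filterByExpr with edgeR 4.0.16 under R 4.3.3 (TMM factors, glmQLFit, glmQLFTest) with Benjamini-Hochberg adjustment. Standard errors (SE) were derived from the fold change and its F statistic. Both procedures were tested on simulated data that varied less than the real data. The mRNA simulation held counting error only. The small RNA simulation used a smaller spread between libraries than the common coefficient of variation of 0.339 estimated here. These runs therefore do not show how the procedures perform at the spread of these data. Alternatives were total counts, TMM and upper quartile scaling, other count minimums, 0.5 added counts, the nearer bound of the interval as the limit, DESeq2 1.42.0, the replicate number as a block, and each small RNA library left out. Mature miRNA sequences come from the study's supplementary sequence list. Gene lengths, positions and target sites were not used here. EBSeq, the authors' tool, was not used.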

Additional observations from a re-analysis of the deposited data

How the results depend on the processing

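With 1 pool per group, no mRNA difference has a replicate check. Scaling by total counts left 2 of the 10 genes over 2-fold higher in steers, beside 4 with median-of-ratios factors, 1 elastic fibre partner beside 3, and 0 receptors beside 1. The other 27 of 30 list counts stayed within 1.5 times the reported ones, and none of the 10 genes changed direction. In the small RNA libraries no listed miRNA was called under any of the 9 alternatives. The log2 fold change of bta-miR-19b changed sign to 0.17 with upper quartile scaling, 0.0020 with the replicate block, 0.27 without steers replicate 2 and 0.59 without bulls replicate 1, and the cause was not tested. Leaving out each library in turn gave -1.27 to -0.45 for bta-miR-29a, -1.25 to -0.60 for bta-miR-335, -1.36 to -0.17 for bta-miR-29b, -0.96 to -0.01 for bta-miR-29c, -2.06 to -0.49 for bta-miR-29d-3p, -1.24 to -0.33 for bta-miR-18a and -0.37 to 0.59 for bta-miR-19b. For each of these 7 the highest value came without bulls replicate 1. Across the alternatives the edgeR or DESeq2 adjusted p ran from 0.0489 to 0.867 for bta-miR-29a and from 0.0367 to 0.867 for bta-miR-335. The lowest came from the replicate block, where both stayed within 2-fold (-0.96 and -0.99). The libraries share only a replicate number, and their deviations correlated at 0.327 over sequences. The block raised the calls over all sequences from 76 to 133 higher and from 76 to 119 lower. Other counts of calls were 1 higher and 0 lower with total counts, 101 and 52 with upper quartile scaling, 34 and 36 with a minimum of 1 count, 50 and 58 with DESeq2, and 20 to 110 higher and 6 to 45 lower with a library left out, where the lone library of a group is assumed to vary like the other group's. CTHRC1 in bulls, with 12 counts, and bta-miR-29d-3p in steers, with 7 and 6, are limited by depth.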
